A study of Mus musculus with 12 samples.

Results

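This account covers 10 mouse genes that are linked to interferon: the ADP-ribosyltransferase genes Parp9, Parp10, Parp12 and Parp14, the ubiquitin ligase gene Dtx3l, and the Schlafen genes Slfn1, Slfn2, Slfn4, Slfn5 and Slfn8. They were picked by symbol as members of these families, with earlier results of these data known, and are 10 of the 40847 rows of the count table. All 10 passed the filter on low counts that left 14749 genes for testing. Polyadenylated RNA had been sequenced from FLAMs, which are mouse macrophages derived from fetal liver and kept in GM-CSF (30 ng/ml) as a culture model of the macrophages of the lung's air spaces. Every group received GM-CSF. The untreated group received nothing more, the TGFβ group recombinant human TGFβ1 at 20 ng/ml, the Pam3 group the TLR2 ligand Pam3CSK4 at 25 ng/ml for 18 h, and the Pam3+TGFβ group both, with 3 libraries each. The labels give no genotype, strain or age for these cells and do not say whether the 3 libraries of a group came from separate cultures or animals, so p-values measure only the spread between these libraries.

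PARP enzymes attach ADP-ribose to proteins and nucleic acids. PARP9 works in a complex with DTX3L, PARP10, PARP12 and PARP14 add single ADP-ribose units, and genes of this branch are known as interferon-stimulated genes. Schlafen proteins are a family that expanded in rodents, lies in 1 gene cluster in the mouse, is known for restraining the growth of T cells and myeloid cells, and in its longer members carries a helicase-like part. Type I interferon reaches many of its target genes through the transcription factor complex ISGF3, which binds a promoter element named ISRE. TLR2 is best known for driving inflammatory cytokine genes, and TGFβ is a cytokine that alveolar macrophages need for their development.

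Library totals ran from 34036650 to 44374115 counts. Levels are given in CPM, the count rate of edgeR after TMM scaling, and differences as log2 fold changes from the same tool. The 8 macrophage markers summed to 32424 to 36602 CPM without TGFβ, to 17073 to 18030 CPM in the TGFβ libraries and to 26219 to 26872 CPM in the Pam3+TGFβ libraries, and none was at 0. Most of that sum is Lyz2, with a mean of 29814 CPM untreated and 15243 CPM with TGFβ. Itgam went from 1088 to 38.7 CPM and Adgre1 from 303 to 145 CPM, while Mertk (223 and 222 CPM) and Fcgr1 (81.1 and 91.3 CPM) were close in both groups. The 6 alveolar macrophage markers summed to 5694 to 7652 CPM with none at 0, but they moved in opposite directions with TGFβ. From untreated to TGFβ cells the mean went from 2146 to 123 CPM for Marco and from 335 to 168 CPM for Itgax, against 32.1 to 300.3 CPM for Siglecf, 2953 to 5036 CPM for Chil3, 117 to 225 CPM for Pparg and 448 to 774 CPM for Car4. T cells, in which Schlafen genes are also known, were represented by at most 0.339 CPM over 5 markers, with Cd3e, Cd3g and Cd8a at 0 in every library. In the Pam3+TGFβ libraries this was Trac alone, at 0.268 to 0.339 CPM (35 counts in all), which was at 0 in the other 9 libraries. Sums of other lists were low, and some moved with TGFβ at rest. The 3 B cell markers summed to between 0 and 0.0962 CPM untreated and between 0.083 and 0.419 CPM with TGFβ. The 5 neutrophil markers summed to between 0 and 0.144 CPM and between 0.131 and 0.277 CPM. For both lists the libraries of the groups overlapped. The 3 dendritic cell markers went from between 4.16 and 5.05 CPM untreated to between 1.11 and 1.94 CPM, with Flt3 and Siglech at 0 in both groups, and the 4 mast cell or basophil markers from between 0.263 and 1.203 CPM to between 0 and 0.0741 CPM, with Tpsb2 and Cma1 at 0 in both. In the fibroblast or endothelium list, the mean of Cdh5 went from 0.888 CPM untreated to 0.0514 CPM with TGFβ, and that of Pdgfra from 0.594 to 1.02 CPM. The 4 hepatocyte markers, nearly all Afp, summed to between 5.80 and 5.87 CPM untreated and between 5.83 and 6.25 CPM with TGFβ. Their sum was between 6.40 and 7.70 CPM with Pam3 and between 8.40 and 10.14 CPM with both. The part of these marker shifts in the results below was not tested. Within their groups, untreated replicate 3, TGFβ replicate 2 and Pam3 replicate 1 stood farthest from the other libraries. Leaving each of these out ended no call of a member except that of Dtx3l under TGFβ at rest, given below. In bulk RNA, fewer cells of a type and less RNA per cell cannot be told apart.

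Across the members, Pam3 raised every gene, more so in cells kept with TGFβ. TGFβ alone lowered all 5 Schlafen members, whereas Parp10 and Dtx3l rose, Parp12 and Parp14 fell and Parp9 did not pass the test. In Pam3-treated cells TGFβ went with higher levels of 9 of the 10 members, the exception being Slfn1. The plot of all 12 libraries shows the order TGFβ, untreated, Pam3 and both, from low to high, for 6 members. Parp9, Parp10 and Dtx3l had TGFβ above untreated, and Slfn1 had its highest level with Pam3 alone.

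**Figure D1:**
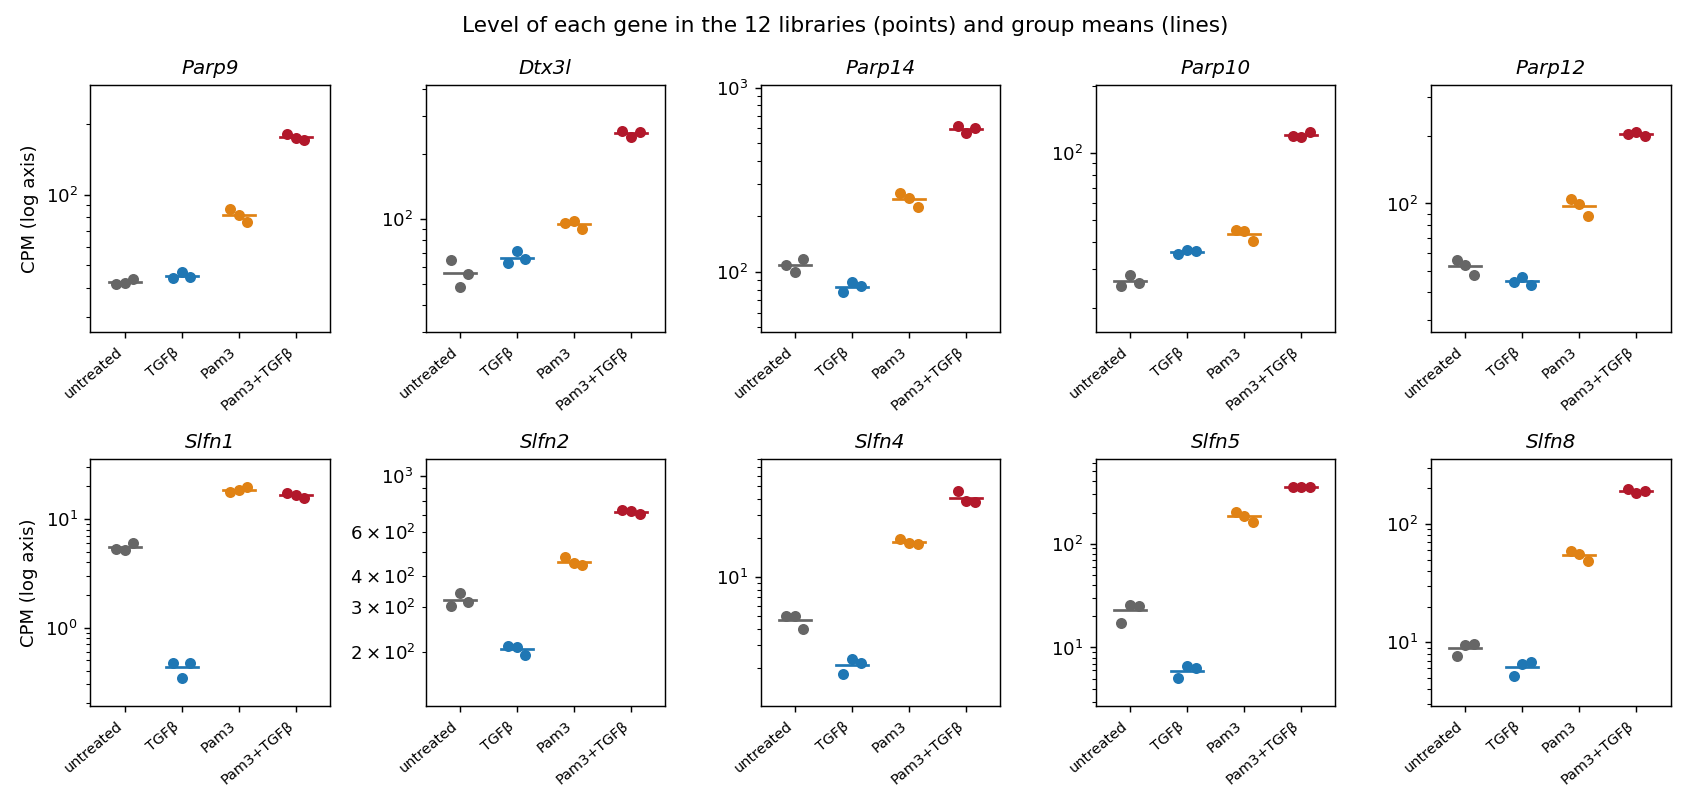
Level of each member in every library, in CPM on a log axis, by group (untreated, TGFβ, Pam3, Pam3+TGFβ), with points for the 3 libraries and a bar for the group mean. The Pam3+TGFβ libraries are the highest for every member but Slfn1, where they (15.5 to 17.5 CPM) lie under those with Pam3 alone (17.8 to 19.6 CPM).

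The first genes are the partners Parp9 and Dtx3l. Parp9 was at 41.8, 42.2 and 43.8 CPM in the untreated libraries, at 43.9, 46.8 and 44.5 CPM with TGFβ, at 86.9, 82.2 and 76.5 CPM with Pam3, and at 182, 175 and 170.2 CPM with both. Its TGFβ libraries all lay a little above the untreated ones, and neither set came near the Pam3 libraries. Pam3 raised Parp9 1.92-fold without TGFβ (log2 0.94, SE 0.0566, adjusted p = 4.77e-12) and 3.89-fold with it (log2 1.96, SE 0.0572, adjusted p = 2.91e-19). The TGFβ difference at rest was 0.08 (SE 0.0569, adjusted p = 0.237) and did not pass the test, while after Pam3 it was 1.10 (SE 0.0554, adjusted p = 1.00e-14).

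Dtx3l, an E3 ubiquitin ligase of the Deltex family, was at 64.9, 48.9 and 56.1 CPM in the untreated libraries, at 62.7, 71.5 and 65.4 CPM with TGFβ, at 95.8, 98.7 and 89.8 CPM with Pam3, and at 256, 239.9 and 254 CPM with both. The untreated libraries were the most scattered relative to their mean and overlapped the TGFβ libraries. It is the only member with an overlap in any of the 4 simple comparisons. The log2 Pam3 response of Dtx3l was 0.74 without TGFβ (SE 0.0773, adjusted p = 7.10e-07) and 1.91 with it (SE 0.078, adjusted p = 1.11e-13). The rise with TGFβ at rest was small (log2 0.23, SE 0.0774, adjusted p = 0.0169). It no longer passed without untreated replicate 2 (log2 0.14, adjusted p = 0.0732), without untreated replicate 3 (0.23, adjusted p = 0.0573) or without TGFβ replicate 2 (0.20, adjusted p = 0.0636), and it was 0.37 without untreated replicate 1. With Pam3 present the TGFβ difference was 1.40 (SE 0.0766, adjusted p = 8.48e-12), with no overlap between libraries.

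The 2 genes lie head to head on chromosome 16 of GRCm39, Parp9 at chr16:35758840-35792980 on the plus strand and Dtx3l at chr16:35746881-35759521 on the minus strand. Their spans overlap by 682 bases, and 458 exon bases belong to both, 9.12% of those of Parp9 and 8.0% of those of Dtx3l. The sources used here do not state whether reads were counted by strand, so reads from those bases may have gone to either gene. The count of Parp9 per count of Dtx3l averaged 0.763 ± 0.112 (SD, n = 3) untreated, 0.679 ± 0.0224 with TGFβ, 0.864 ± 0.0384 with Pam3 and 0.702 ± 0.0289 with both. Within this pair, the share of Parp9 was lower with TGFβ by 0.23 on the log2 scale (exact two-sided permutation test within Pam3 levels over 400 assignments, p = 0.02, adjusted p = 0.0267 over 8 ratio tests). This difference did not pass the permutation test within replicate blocks, which has few assignments (adjusted p = 0.0833). The libraries with and without TGFβ did not overlap after Pam3 but did at rest. The difference with Pam3, 0.12, did not pass (exact permutation p = 0.085, adjusted p = 0.0971). Leaving out 1 library gave values between 0.0596 and 0.166, which passed without untreated replicate 2 (0.166, adjusted p = 0.0267) and without Pam3+TGFβ replicate 3 (0.135, adjusted p = 0.0457).

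Parp14, the longest gene of the set and known for several macrodomains that bind ADP-ribose, was at 108, 99.7 and 117 CPM untreated, at 77.8, 87.9 and 83.4 CPM with TGFβ, at 266, 251 and 224 CPM with Pam3, and at 621, 567 and 604 CPM with both. All 4 groups were separate, with TGFβ lowest and the combination highest. The Pam3 response of Parp14 was 2.29-fold without TGFβ (log2 1.19, SE 0.0656, adjusted p = 1.98e-10) and 7.19-fold with it (log2 2.85, SE 0.0689, adjusted p = 1.46e-16). TGFβ lowered Parp14 at rest (log2 -0.38, SE 0.0658, adjusted p = 8.48e-05) and was followed by a higher level after Pam3 (log2 1.27, SE 0.0648, adjusted p = 7.03e-12). Parp14 lies 54877 bases from Dtx3l on the same chromosome, at chr16:35653231-35692003 on the minus strand. Relative to its neighbour Parp9, it gained with Pam3: the count ratio of Parp14 to Parp9 was 2.54 ± 0.158 (SD, n = 3) untreated, 1.84 ± 0.0601 with TGFβ, 3.02 ± 0.0749 with Pam3 and 3.40 ± 0.149 with both. The difference with Pam3 was 0.57 on the log2 scale (exact permutation p = 0.005, the smallest 400 assignments can give, adjusted p = 0.008), and the Pam3 libraries were above the others at both TGFβ levels. Permuting within replicate blocks, with few assignments, gave adjusted p = 0.05, which is not under the threshold. Before adjustment this was the smallest p those assignments can give, so the check could not decide. The TGFβ difference averaged over both Pam3 levels was -0.14 (exact permutation p = 0.195, adjusted p = 0.195). At rest the TGFβ libraries lay under the untreated ones in this ratio, and after Pam3 they lay above, without overlap in either case.

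Parp10, a mono-ADP-ribosyltransferase with RNA-binding motifs, was at 25.3, 28.3 and 25.97 CPM untreated, at 35.2, 36.5 and 36.3 CPM with TGFβ, at 45.2, 44.7 and 40.2 CPM with Pam3, and at 120.1, 119 and 125 CPM with both. It had the larger of the 2 rises called under TGFβ at rest (log2 0.44, SE 0.0631, adjusted p = 2.04e-06), and the TGFβ libraries were all above the untreated ones. Pam3 raised it by 0.71 without TGFβ (SE 0.063, adjusted p = 4.88e-09) and by 1.75 with TGFβ (SE 0.0623, adjusted p = 1.47e-17). The TGFβ difference after Pam3 was 1.48 (SE 0.0617, adjusted p = 2.14e-16).

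Parp12, a zinc-finger protein with a mono-ADP-ribosyltransferase part, was at 56.1, 53.0 and 48.1 CPM untreated, at 44.8, 46.7 and 43.0 CPM with TGFβ, at 105, 99.5 and 88.3 CPM with Pam3, and at 205, 209 and 201 CPM with both. The untreated and TGFβ libraries lay close together without overlapping, far under the other groups. TGFβ lowered Parp12 slightly at rest (log2 -0.23, SE 0.0637, adjusted p = 0.00443). This call was lost without untreated replicate 1 (log2 -0.15, adjusted p = 0.0684). Pam3 raised the gene by 0.90 without TGFβ (SE 0.0631, adjusted p = 8.73e-11) and by 2.19 with it (SE 0.0647, adjusted p = 3.55e-19), and in Pam3-treated cells TGFβ went with a level higher by 1.07 (SE 0.0621, adjusted p = 1.71e-13). Parp10 lies at chr15:76115374-76127648 and Parp12 at chr6:39063342-39095573, both on the minus strand and apart from the chromosome 16 genes.

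The Schlafen members all lie in 1 stretch of 239 kb on chromosome 11 of GRCm39, in the order Slfn5 (chr11:82842100-82855666, plus strand), Slfn8 (chr11:82892984-82911669, minus strand), Slfn2 (chr11:82955609-82961504), Slfn1 (chr11:83007615-83013496) and Slfn4 (chr11:83066012-83081042), the last 3 on the plus strand. Slfn9 lies between Slfn5 and Slfn8, and Slfn3 follows Slfn4. RefSeq promoter windows (GRCm38.p6, 250 bases before to 50 after the start) were at hand for 7 of the 10 members, which are the 5 Schlafen members, Parp12 and Dtx3l. The ISRE core was searched on both strands as GAAA, any 2 bases, and GAAA again. It was present in 2 of the 7 members, Slfn5 and Slfn8, against 3.99% of 27025 genes (3.44% of all 32851 windows). The 250 bases before the start are shown for both, for Slfn9 as the neighbour most like Slfn8, and for Slfn1, whose TGFβ difference at rest was the largest of the members and whose window has no such match. Capitals mark the ISRE core, and each sequence runs 5′ to 3′ on the strand of its gene (GRCm38.p6: Slfn5 chr11:82951852-82952101 plus, Slfn8 chr11:83020811-83021060 minus, Slfn9 chr11:82991831-82992080 minus, Slfn1 chr11:83116570-83116819 plus).
Slfn5: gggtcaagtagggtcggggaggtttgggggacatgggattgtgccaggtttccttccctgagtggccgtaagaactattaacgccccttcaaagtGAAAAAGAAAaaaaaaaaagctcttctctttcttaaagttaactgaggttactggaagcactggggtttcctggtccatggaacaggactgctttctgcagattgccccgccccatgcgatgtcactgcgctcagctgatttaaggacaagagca
Slfn8: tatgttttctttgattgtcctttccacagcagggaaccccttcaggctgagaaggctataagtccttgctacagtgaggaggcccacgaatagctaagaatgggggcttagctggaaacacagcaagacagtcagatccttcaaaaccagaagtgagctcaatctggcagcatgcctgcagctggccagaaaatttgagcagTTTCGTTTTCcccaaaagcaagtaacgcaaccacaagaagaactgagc
Slfn9: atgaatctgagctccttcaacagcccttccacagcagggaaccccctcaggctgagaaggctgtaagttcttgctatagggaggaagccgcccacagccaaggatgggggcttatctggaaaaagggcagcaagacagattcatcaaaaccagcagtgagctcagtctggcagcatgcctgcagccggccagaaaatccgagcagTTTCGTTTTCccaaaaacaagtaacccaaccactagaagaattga
Slfn1: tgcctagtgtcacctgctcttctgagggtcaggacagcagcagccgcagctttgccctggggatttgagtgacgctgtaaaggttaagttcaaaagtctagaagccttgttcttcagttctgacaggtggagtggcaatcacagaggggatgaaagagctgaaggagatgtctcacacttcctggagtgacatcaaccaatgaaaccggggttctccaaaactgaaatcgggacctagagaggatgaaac

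Counted from the start of the gene, the match lies at -155 to -146 in Slfn5, at -48 to -39 in the Slfn8 window shown and at -45 to -36 in Slfn9. A second window of Slfn8, from another start, has it at -136 to -127. In Slfn8 and Slfn9 it reads TTTCGTTTTC on the gene's strand and is thus on the opposite strand. The windows of Slfn8 and Slfn9 were identical at 252 of 288 aligned bases (87.5%), and no other pair among these windows exceeded 81.3%. The GAS element, searched as TTCNNNGAA on both strands, had no match in the 7 members and is present in 9.55% of genes (8.3% of all windows). A sequence like the NF-kB element (GGG, any 5 bases and CC, on both strands) was found for Parp12 and Slfn1. It is present in 53.5% of genes (50.8% of windows). An AP-1 element (TGANTCA, in 8.97% of genes and 7.81% of windows) was found for Slfn4. A match describes the letters in the window and not a bound site.

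Slfn5, a long nuclear Schlafen protein, was at 17.3, 25.8 and 25.1 CPM untreated, at 5.03, 6.59 and 6.34 CPM with TGFβ, at 204, 187 and 162 CPM with Pam3, and at 354, 356 and 355 CPM with both. The 4 groups were separate, and the combination libraries were nearly equal. Pam3 raised Slfn5 8.11-fold without TGFβ (log2 3.02, SE 0.154, adjusted p = 7.04e-07) and 59.1-fold with it (log2 5.88, SE 0.181, adjusted p = 3.34e-09). The fold with TGFβ starts from a resting level that TGFβ had lowered (log2 -1.92, SE 0.176, adjusted p = 1.04e-05). Between the Pam3 groups the difference was 0.94 (SE 0.139, adjusted p = 0.00036). In the GENCODE M39 annotation, 19.8% of its exon bases are shared with Slfn5os on the opposite strand, a row with 0 counts in all libraries.

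Slfn8, another long member of the family, was at 7.70, 9.40 and 9.58 CPM untreated, at 5.17, 6.49 and 6.78 CPM with TGFβ, at 59.1, 55.9 and 48.4 CPM with Pam3, and at 198, 184 and 189.6 CPM with both. Its groups did not overlap, and its level with both agents was 21.4 times that of untreated cells, the highest such ratio of the 10 members. The Pam3 response was 2.61 without TGFβ (SE 0.0943, adjusted p = 5.92e-14) and 4.95 with it (SE 0.102, adjusted p = 2.01e-19). TGFβ lowered it at rest by less than Slfn5 (log2 -0.53, SE 0.105, adjusted p = 0.000226) and went with a larger difference after Pam3 (log2 1.81, SE 0.0843, adjusted p = 1.20e-13). Of the 100-base windows of its transcripts, 19.5% also occur in the opposite-strand transcript Gm74281, which has no row in the table, 2.43% in Slfn10 and 1.16% in Slfn9, so part of its reads could belong elsewhere.

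The 2 genes with the ISRE core moved by different amounts. The count ratio of Slfn5 to Slfn8 was 2.54 ± 0.258 (SD, n = 3) untreated, 0.974 ± 0.0404 with TGFβ, 3.38 ± 0.0637 with Pam3 and 1.86 ± 0.0743 with both. The ratio was lower with TGFβ by 1.12 on the log2 scale and higher with Pam3 by 0.68 (each exact permutation p = 0.005, adjusted p = 0.008). Permuting within replicate blocks, with few assignments, gave adjusted p = 0.05 for each, which is not under the threshold. Before adjustment each was the smallest p those assignments can give, so the check could not decide. Within each level of the other agent, all libraries of one side lay beyond all of the other.

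Slfn1, which is known for arresting T cell growth when expressed in excess, was at 5.26, 5.20 and 6.01 CPM untreated, at 0.470, 0.346 and 0.471 CPM with TGFβ, at 17.8, 18.5 and 19.6 CPM with Pam3, and at 17.5, 16.8 and 15.5 CPM with both. The TGFβ libraries were the lowest by far and rest on 17, 14 and 18 counts, against 200 to 216 counts in the untreated libraries. Its TGFβ difference at rest was -3.67 (log2, SE 0.166, adjusted p = 8.70e-16). After Pam3 the TGFβ difference was -0.17 (SE 0.0956, adjusted p = 0.159), which did not pass the test although the 3 libraries with both agents lay just under the 3 with Pam3 alone. Pam3 raised Slfn1 3.40-fold without TGFβ (log2 1.77, SE 0.104, adjusted p = 3.42e-12) and 38.6-fold with it (log2 5.27, SE 0.151, adjusted p = 2.14e-19). No 100-base window of its transcripts occurs in those of another gene.

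Slfn2, known from a mouse mutant whose T cells and monocytes lose their resting state, was at 305, 342 and 314 CPM untreated, at 210.4, 209 and 194 CPM with TGFβ, at 476, 449.5 and 443 CPM with Pam3, and at 734, 726 and 708 CPM with both. It was abundant in every library, and its 4 groups were separate. Slfn2 had the smallest Pam3 response of the members without TGFβ (log2 0.51, SE 0.051, adjusted p = 4.01e-08), against 1.82 with it (SE 0.0525, adjusted p = 2.31e-19). TGFβ lowered it by 0.65 at rest (SE 0.0512, adjusted p = 5.80e-11) and went with a level 0.66 higher after Pam3 (SE 0.051, adjusted p = 4.30e-11), changes of nearly equal size and opposite sign.

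Slfn4, a Schlafen gene known in myeloid cells, was at 4.996, 5.05 and 3.99 CPM untreated, at 1.798, 2.37 and 2.17 CPM with TGFβ, at 19.6, 18.3 and 18.0 CPM with Pam3, and at 45.9, 38.2 and 37.7 CPM with both. No 2 groups overlapped. The Pam3 response was 1.99 without TGFβ (SE 0.111, adjusted p = 1.19e-12) and 4.26 with it (SE 0.122, adjusted p = 2.12e-19), and the TGFβ difference turned from -1.14 at rest (SE 0.135, adjusted p = 8.99e-08) to 1.12 after Pam3 (SE 0.0971, adjusted p = 4.02e-10).

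Slfn1 and Slfn2 are neighbours on the same strand, and their ratio moved the most of the 4 ratios examined. Counts of Slfn1 per count of Slfn2 averaged 0.0172 ± 0.00198 (SD, n = 3) untreated, 0.00211 ± 0.000404 with TGFβ, 0.041 ± 0.00345 with Pam3 and 0.023 ± 0.000956 with both. The log2 ratio was lower with TGFβ by 1.92 and higher with Pam3 by 2.34 (each exact permutation p = 0.005, adjusted p = 0.008), and libraries on the 2 sides did not overlap at either level of the other agent. Permuting within replicate blocks, with few assignments, gave adjusted p = 0.05 for each, which is not under the threshold. Before adjustment each was the smallest p those assignments can give, so the check could not decide.

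**Figure D2:**
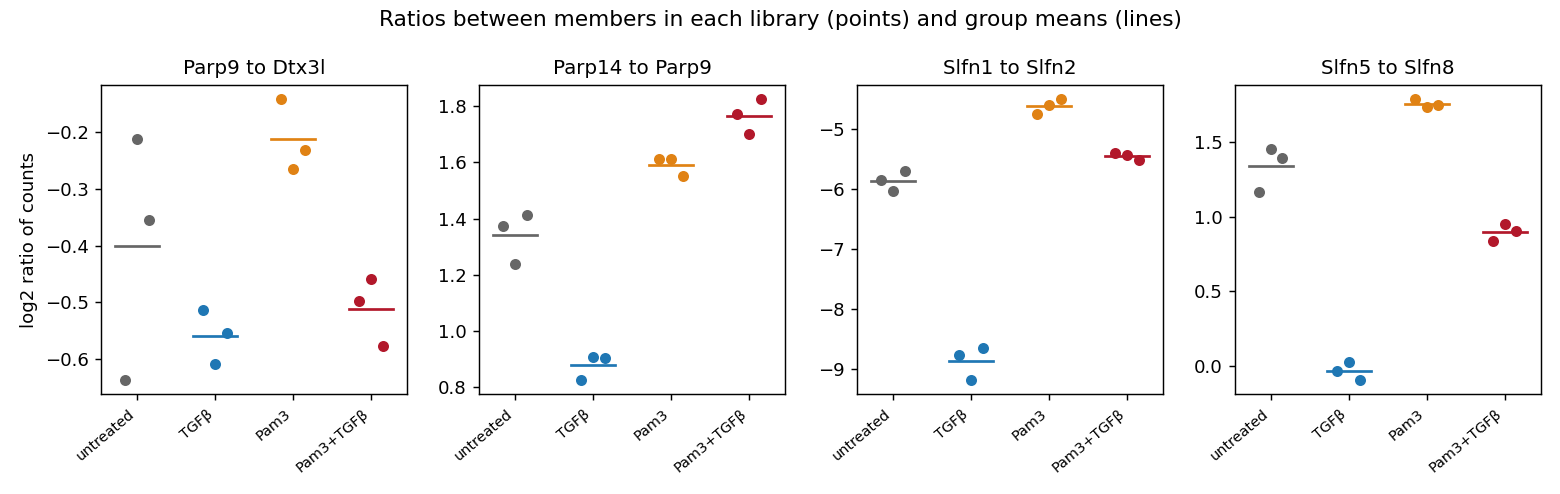
Log2 ratio of counts for 4 pairs of members in each library (0.5 added to each count), by group, with points for libraries and a bar for the group mean. Slfn5 to Slfn8 falls from 1.34 untreated to -0.04 with TGFβ, and Slfn1 to Slfn2 from -5.87 to -8.87, while Parp9 to Dtx3l stays between -0.64 and -0.14 in all libraries.

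Counted over the set, Pam3 without TGFβ raised 10 of 10 members, against 9.62% of all tested genes called higher and 8.66% called lower, with a median of 1.07 for the members and 0.00 for all genes. With TGFβ, Pam3 again raised 10 of 10, against 20.4% called higher and 38.5% called in either direction, and the median was 2.52. Changes of at least 1 on the log2 scale were called for 5 members without TGFβ (1.95% of all genes, either direction) and for 10 with it (7.51%). The libraries of the groups did not overlap for any member in these comparisons, against 15.6% of genes that were higher without overlap in the first and 25.4% in the second.

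TGFβ without Pam3 raised 2 members (22.9% of all genes were called higher) and lowered 7 (28.1% lower), so that 9 were called in either direction (51% of all genes). Libraries did not overlap for Parp9 and Parp10, which were higher (26.1% of all genes), and for the 7 members that were lower (30.4%). The median was 0.08 for the 4 PARP genes and Dtx3l, of which 2 rose and 2 fell, and -1.14 for the 5 Schlafen genes, which all fell. With Pam3 present, TGFβ went with higher levels of 9 members (21.5%) and a lower level of none (23.8%), where 45.3% of all genes were called in either direction. The same 9 were higher without overlap (26.8% of all genes). The medians were 1.27 for the PARP genes with Dtx3l and 0.94 for the Schlafen genes. These comparisons share groups with those of Pam3, so their values are not independent of each other.

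**Figure D3:**
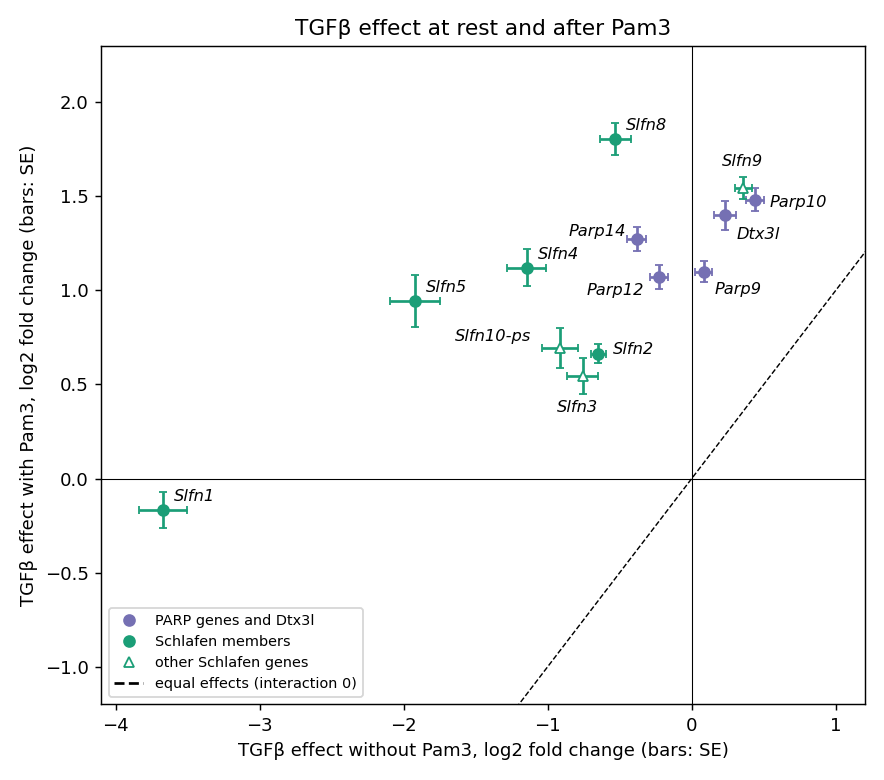
TGFβ difference without Pam3 (x axis) against that with Pam3 (y axis) for each member and 3 further Schlafen genes, as log2 fold changes with SE bars. The Schlafen members lie left of 0 and the members other than Slfn1 lie above 0, and all points are above the dashed line of equal effects.

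The interaction asks whether the Pam3 response differs between cells with and without TGFβ: it is the log2 Pam3 response with TGFβ minus that without, and equals the TGFβ difference after Pam3 minus that at rest. It was positive and called for 10 of 10 members, against 10.3% of all genes called positive and 5.67% called negative. It reached at least 1 for all 10, against 3.25% of genes in either direction. This count depends on the scaling, since with upper-quartile scaling Parp9 (0.97) and Parp10 (0.999) were under 1. With a library left out, the lowest values of both were also under 1 (0.967 for Parp9 without Pam3+TGFβ replicate 1, 0.9988 for Parp10 without untreated replicate 2). The values ran from 1.02 for Parp9 (SE 0.0792, adjusted p = 4.46e-10) to 3.50 for Slfn1 (SE 0.197, adjusted p = 1.79e-12), with medians of 1.17 for the PARP genes with Dtx3l and 2.34 for the Schlafen genes. With upper-quartile scaling, the split of all called genes in the interaction went from 1516 higher and 836 lower to 1255 and 1097, and in the Pam3 response with TGFβ from 3008 and 2670 to 2477 and 3489. The members remained called under that scaling.

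**Figure D4:**
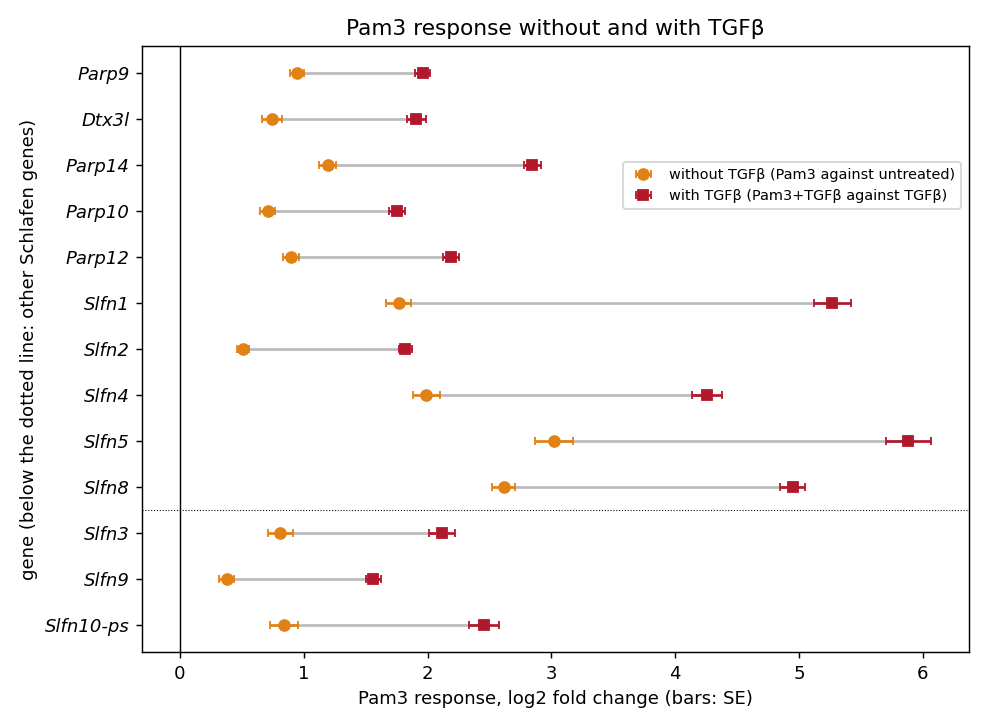
Pam3 response of each member without and with TGFβ, as log2 fold change with SE bars. The response with TGFβ is the larger for each of the 10 members, from 1.75 against 0.71 for Parp10 to 5.88 against 3.02 for Slfn5.

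Since the interaction is the difference of the TGFβ effects after Pam3 and at rest, it can be split into those parts. For Parp9, Parp10 and Dtx3l, the difference after Pam3 exceeded the whole interaction (108%, 142% and 120% of it), as their estimated TGFβ differences at rest were above 0. For Parp12, Parp14 and Slfn8 the level after Pam3 made up 82.6%, 76.95% and 77.3% of it. Slfn2 and Slfn4 divided about evenly, with 50.6% and 49.5% from the level after Pam3. For Slfn5 the lower resting level made up 67.1%, and for Slfn1 it made up 105%, the remaining -4.84% coming from the slightly lower level after Pam3.

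**Figure D5:**
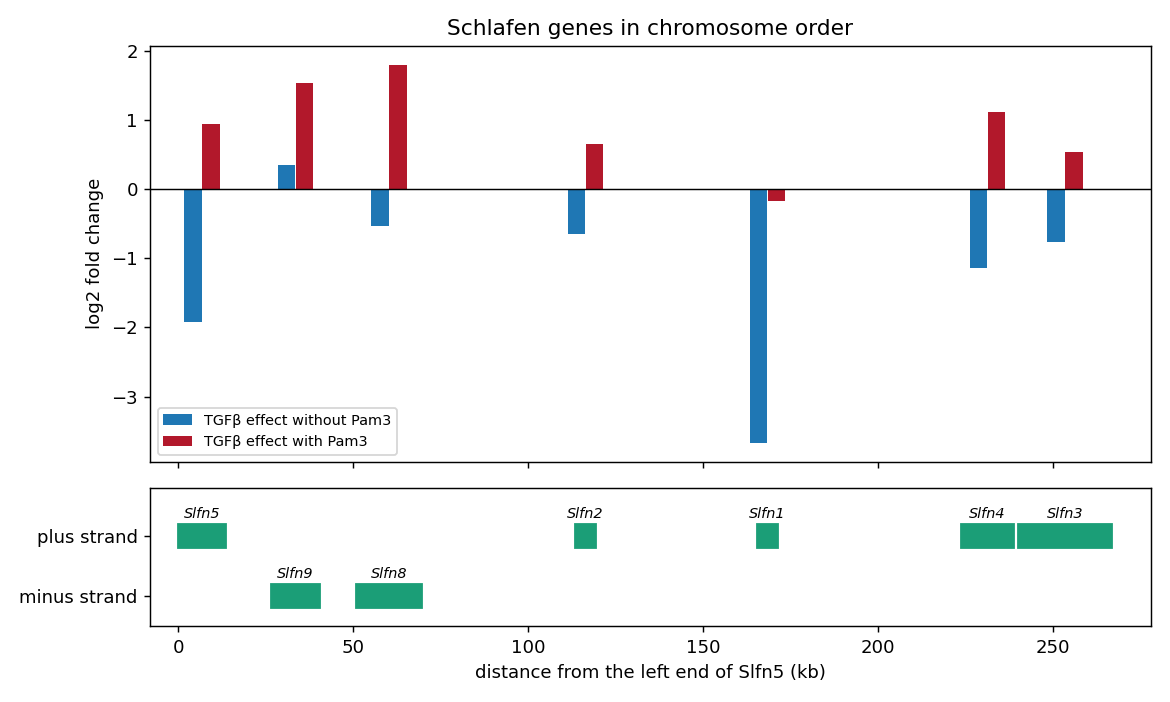
Schlafen genes along the cluster, placed by distance in kb from the start of Slfn5, with bars for the log2 TGFβ difference without and with Pam3. The largest fall under TGFβ at rest is at Slfn1 (-3.67) and the largest TGFβ difference after Pam3 at Slfn8 (1.81), while the neighbour Slfn9 is the only gene of the cluster shown with a rise at rest (0.36).

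Related genes were examined from fixed lists, starting with the rest of the Schlafen family. Of 5 other Schlafen genes, 3 passed the filter, and all 3 were called higher in both Pam3 responses and in the interaction, with a median interaction of 1.31. Over all genes, 9.62% and 20.4% were called higher in the Pam3 responses without and with TGFβ, and 10.3% in the interaction. Slfn3 and Slfn10-ps, like the Schlafen members, were lower with TGFβ at rest (log2 -0.76, SE 0.106, and -0.92, SE 0.124), with adjusted p = 1.33e-06 and 9.04e-07. Slfn9 was higher (0.36, SE 0.0597, adjusted p = 1.57e-05). Slfn14 and Slfnl1 had 3 counts and 1 count over all 12 libraries and were not tested.

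Beyond the 4 members, the PARP family holds enzymes of DNA repair and other roles. Of 12 tested, 2 were called higher with Pam3 without TGFβ, 6 higher and 2 lower with Pam3 in TGFβ cells, and 3 had a positive interaction, with a median of 0.08. Over all genes the shares were 9.62%, 20.4%, 18.1% and 10.3% in the same order, and the 2 genes higher without TGFβ and the 2 lower with it are near those shares. Those 3 were Zc3hav1, an antiviral RNA-binding protein of this family (0.86, SE 0.0763, adjusted p = 3.98e-09), Parp8 (0.45, SE 0.143, adjusted p = 0.0303) and Parp3 (0.30, SE 0.0822, adjusted p = 0.0126). The largest negative estimate, -0.75 for Parp16 (SE 0.323, adjusted p = 0.131), did not pass. Of 3 other Deltex genes tested, none had a positive interaction call and Dtx4 had a negative one (-0.22, SE 0.0685, adjusted p = 0.0313). Of 6 tested genes whose products remove ADP-ribose, 1 was called, Adprh (0.33, SE 0.0743, adjusted p = 0.00238). Over all genes the interaction was called positive for 10.3%, negative for 5.67% and in either direction for 15.9%. The 1 of 6 is near that last share.

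Of 13 genes of the interferon receptor and ISGF3 pathway, 9 were higher and 2 lower with Pam3 alone (9.62% and 8.66% of all genes). With Pam3 in TGFβ cells 11 were higher and 1 lower (20.4% and 18.1%), and 8 had a positive interaction (10.3%). The interaction was 1.15 for Stat2 and 0.66 for Irf9, which belong to ISGF3, and 2.45 for Irf7, a factor that amplifies type I interferon. At rest TGFβ raised 2 of the 13 and lowered 6, with a median of -0.26, where 22.9% of all genes were called higher and 28.1% lower. Socs1, an inhibitor of cytokine signalling, was among the lower ones (log2 -1.62), Stat2 was higher (0.24), and Irf9 (0.14, adjusted p = 0.0731) did not pass.

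The gene nearest in pattern was found for each member, and is given for 8 of them, by the root mean square difference of centred log2 CPM over the 12 libraries. Slfn2 was nearest to Tdrd7 (0.0927 log2 units), Parp14 to Trim30d (0.0936), Parp12 to Eif2ak2 (0.1) and Parp9 to Herc6 (0.109). Slfn1 (Phf11b, 0.22), Slfn4 (Oas2, 0.225), Slfn8 (Oas3, 0.232) and Slfn5 (Gm12250, 0.244) had no gene as close as these. The measure is not scaled to the range of a gene. Slfn1, Slfn4, Slfn8 and Slfn5 also had the largest Pam3 responses with TGFβ of the members (log2 4.26 to 5.88). Dtx3l stood in place 11 of the genes nearest to Parp9, and no gene was among the 3 nearest of 3 or more members.

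Levels can be compared between genes only per length. In CPM per kb of annotated exon, Slfn2 was the highest member in every group, at 161 ± 9.74 (SD, n = 3) untreated, 103 ± 4.57 with TGFβ, 229 ± 8.76 with Pam3 and 363 ± 6.75 with both. In untreated cells it was followed by Parp12 (12.04), Parp14 (11.3), Dtx3l (9.89) and Parp9 (8.48), neighbours whose libraries overlapped in that order, then by Parp10 (6.198), Slfn5 (3.51), Slfn1 (2.71), Slfn8 (2.16) and Slfn4 (1.06), of which only Slfn5 and Slfn1 overlapped. With TGFβ the 4 Schlafen genes other than Slfn2 were at the bottom, from 1.49 CPM per kb for Slfn8 to 0.212 for Slfn1, each apart from the next. With both agents Slfn5 (54.8) came next after Parp14 (62.3), Slfn8 (46.2) overlapped Parp12 (47.1) and Dtx3l (43.7), and Slfn4 (9.20) and Slfn1 (8.21) were last and overlapped.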

How the data were processed

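Counts of RNA-seq reads per gene symbol were used as the authors deposited them, for 12 libraries in 4 groups taken from the sample titles, with no column left unmapped. Per the submitters' processing notes, reads were aligned to GRCm39 with Bowtie2 2.4.1 and counted with featureCounts of Subread 2.0.0. The annotation, strand setting and handling of multiply aligned reads are not given in the sources used here. That aligner makes no spliced alignments, and reads across exon junctions may be lost. The reads carry no molecular identifiers.

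Genes were filtered with filterByExpr (minimum count 10), scaled by TMM and tested in edgeR 4.0.16 (R 4.3.3) by robust quasi-likelihood, on all 12 libraries with 4 group means. P-values were adjusted by Benjamini-Hochberg over the 14749 tested genes, separately for 5 contrasts, with calls under 0.05. Each adjusted p in the text is from this test unless a permutation test is named. The standard error is the size of the log2 fold change divided by the square root of F. Ratios of counts between members (0.5 added) were compared by an exact two-sided permutation test within the levels of the other agent. That test was written with numpy 2.4.6, and its p-values were adjusted over 8 tests. The procedure was tested on simulated data, with changes put into the Pam3+TGFβ libraries. The interaction test recovered 73 of 98 changes of size 1 on the log2 scale and 86 of 99 of size 2. It gave 0 wrong signs and called 7 unchanged genes, with 14755 genes tested. Replicates differed beyond sampling noise in every pair (chi-square over its degrees of freedom 9.99 to 220).

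Positions come from GENCODE M39 on GRCm39, matched by symbol for 32245 of 40847 rows. Promoter windows come from RefSeq on GRCm38.p6, another build than that of the counts. Adprs was found under its older symbol Adprhl2. The members and gene lists were chosen with earlier results of these data known. Genes named besides the members are the nearest in pattern to each, up to 4 tested genes per related list with the largest interaction, and Stat2, Irf9, Irf7 and Zc3hav1, while 1 gene that the rule also names is not reported here. A comparison of protein sequences was not run. Alternatives were RLE and upper-quartile scaling, DESeq2 1.42.0, a replicate block, no filter, a minimum of 10 counts in each library, 2 counts added to ratios, and leaving out each library.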

Additional observations from a re-analysis of the deposited data

Results flagged for a closer look

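The Pam3 response of all 10 members differed between cells with and without TGFβ by the interaction test of edgeR, and each of these results is listed for that reason. Over all tested genes, 10.3% had a positive interaction called and 15.9% had one called in either direction. The log2 response with TGFβ minus that without was 1.02 for Parp9, 1.04 for Parp10, 1.30 for Parp12, 1.65 for Parp14 and 1.17 for Dtx3l. Among the Schlafen members it was 3.50 for Slfn1, 1.31 for Slfn2, 2.27 for Slfn4, 2.87 for Slfn5 and 2.34 for Slfn8. All libraries with both agents were above all libraries with TGFβ alone for each of these genes, and all libraries with Pam3 alone were above all untreated ones. Over all tested genes, 25.4% were higher without overlap in the first of these comparisons and 15.6% in the second.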

How the results depend on the processing

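Of 900 values of single members under the alternatives, 896 kept their direction and side of the threshold, 4 no longer passed and none reversed. The 4 are Parp12 and Dtx3l under TGFβ at rest, given above. The number of members called was the same under every alternative except for TGFβ at rest, where it was 8 to 9 when a library was left out. Genes called over all libraries numbered 2697, 5678, 7518, 6679 and 2352 in the order Pam3 without TGFβ, Pam3 with TGFβ, TGFβ without Pam3, TGFβ with Pam3 and interaction. With a library left out they ran from 1965 to 2729, 4856 to 6152, 6923 to 7580, 5984 to 7085 and 1902 to 2430. The difference of Parp9 to Dtx3l with Pam3 was 0.0596 to 0.166 with a library left out, and passed without untreated replicate 2 (0.166, adjusted p = 0.0267) and without Pam3+TGFβ replicate 3 (0.135, adjusted p = 0.0457). Correlations of the deviations of same-numbered replicates ran from -0.174 to 0.30, with 7 of 18 pairs over 0.1, against 8 of 36 pairs with different numbers. As not every same-numbered pair was over 0.1 and the labels name no shared source, the numbers were not taken to pair libraries. With a replicate block no member's call changed. The ratio test within replicate blocks has few assignments: Parp9 to Dtx3l with TGFβ (-0.23) had adjusted p = 0.0833, and with adjusted p = 0.05 Parp14 to Parp9 with Pam3 (0.57), Slfn1 to Slfn2 with Pam3 (2.34) and TGFβ (-1.92) and Slfn5 to Slfn8 with Pam3 (0.68) and TGFβ (-1.12) did not fall under the threshold. An adjusted p of 0.05 here came from the smallest p those assignments can give, so for those ratios the block test could not decide. Depth limits Slfn1 most, with 14 to 18 counts in the TGFβ libraries.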

Other observations

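On the linear scale the members compare differently than on the log2 scale. Slfn1 had the largest interaction on the log2 scale, yet its gain with Pam3 was 13.2 CPM (SE 0.589) without TGFβ and 16.2 CPM (SE 0.576) with it, a ratio of gains of 1.23. Slfn5 gained 162 CPM (SE 12.4) and 349 CPM (SE 0.71), a ratio of 2.16. Parp10 had one of the smallest log2 interactions and the largest ratio of gains, 5.06, with 16.8 CPM (SE 1.85) and 85.3 CPM (SE 2.01). The ratio was 4.81 for Dtx3l, 4.05 for Slfn8, 3.82 for Slfn2, 3.70 for Parp14, 3.55 for Parp12, 3.32 for Parp9 and 2.76 for Slfn4. These ratios were not tested.

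Slfn8 and Slfn9, whose promoter windows were the most alike, had different responses. The level of Slfn9 (SD, n = 3 in each group) was 55.2 ± 3.74 CPM untreated, 70.8 ± 3.66 CPM in TGFβ, 71.7 ± 4.86 CPM in Pam3 and 209 ± 3.48 CPM in Pam3+TGFβ. Its Pam3 response without TGFβ was 0.38 (SE 0.0598, adjusted p = 3.81e-05), against 2.61 for Slfn8, and its TGFβ difference at rest was 0.36, against -0.53. After Pam3 the TGFβ differences were 1.55 and 1.81. The difference between the 2 genes was not tested, as the pair was chosen after its values were seen.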
